A study of Mus musculus with 3 samples.

Results

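The myeloid antigen-presenting cells of mouse back skin were described in 2 single-cell RNA libraries, from mice of 12 months and of 6 months. A cell belonged to them when it held at least 1 unique molecular identifier (UMI, a counted transcript molecule) of each of Tyrobp and Fcer1g, the adaptor chains of myeloid receptors. It also needed at least 5 UMIs of Cd74 or 3 of Lyz2, none of Cd3g, and less than 0.2% of its UMIs from Krt14 and Krt5. The cells were thus chosen by their own counts of these genes, whose values below are a description only. The rule found 75 of 3240 kept cells at 12 months (2.31%, 95% Clopper-Pearson interval 1.83 to 2.89) and 52 of 3502 at 6 months (1.48%, 1.11 to 1.94), 127 of 6742 in all. These shares followed the depth filter: with more than 500 genes required of a cell they were 2.41% at 12 months and 2.78% at 6 months, so the order of the libraries turned. The median over all kept cells was 2743.5 genes at 12 months and 620 at 6 months. The cells were split by whether Cd207 was detected, which gave 50 Cd207+ and 25 Cd207- cells at 12 months and 29 Cd207+ and 23 Cd207- cells at 6 months. In the remaining library, from postnatal day 38 (P38), 0 of 2109 kept cells met the rule, and 3 counts of the total would be a share of 0.142% (exact 95% upper limit 0.175%). That library was made from sorted GFP+ epithelial cells by the study's account, and 1 of its cells held both Tyrobp and Fcer1g.

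Langerhans cells are the resident antigen-presenting cells of the epidermis. They carry the C-type lectin langerin, the product of Cd207, which delivers captured glycans to Birbeck granules, and they display peptides on MHC class II molecules assembled with the invariant chain, the product of Cd74. The dermis below holds macrophages, which make complement C1q and clear debris, and conventional dendritic cells, which carry antigen to lymph nodes. Langerhans cells and macrophages both need the receptor Csf1r.

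All libraries came from dissociated back skin of untreated mice labelled wild type, 1 library per age. The number of mice per library is not given in the sources used here. The study's methods name K14-H2BGFP mice, in which the keratin 14 promoter drives a nuclear green fluorescent protein in epidermal cells, and describe sorts of GFP+ epidermal and GFP- dermal cells, while the labels describe total dissociated skin. By the study's account the 12-month mice were male, with follicles in mixed rest and growth, and the 6-month mice female, with follicles mostly in growth. Age therefore cannot be told apart from sex, hair cycle, sort or library here, and all values below compare these libraries. Cells are not replicates, so no p-value is given. Intervals are exact 95% intervals that cover counting error only.

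The cells described were of like depth in both libraries, with a median of 9133 UMIs at 12 months and 9164 at 6 months, while all kept cells had a median of 11438.5 at 12 months and 1019 at 6 months. By class the medians were 8851 and 9746 UMIs in Cd207+ cells of 12 and 6 months, and 9797 and 4901 in Cd207- cells. T cells of the same libraries (42 at 12 months and 45 at 6 months) had medians of 4529 and 4434 UMIs, and keratinocytes (1229 and 1173) had 12554 and 1378. The 12-month and 6-month libraries shared 136 cell barcodes, of which 1 belonged to a described cell, with 6154 UMIs at 6 months and 756 at 12 months. Near the edges of the rule, 78 kept cells at 12 months and 58 at 6 months held both adaptor chains, and 3 and 6 of them were left out for Cd3g, keratin or low Cd74 and Lyz2. Among Cd207+ cells of 12 months, 3 had a single Cd207 UMI and 2 had exactly 2, while at 6 months the lowest count was 3.

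The label of the cells held for one class and only in part for the other. Cd207 chose the classes and is given as a description: Cd207+ cells held 1 to 385 UMIs of it (median 37.5) at 12 months and 3 to 173 (median 38) at 6 months. The Langerhans cell markers Epcam, Mfge8, Ltc4s, H2-M2, Cd24a and Cdh1, none of which the rule used, were all at least 2-fold higher in Cd207+ than in Cd207- cells of both libraries. The other 3 measured markers of that list, Cd74, H2-Aa and H2-Ab1, were not. The list was chosen with earlier results of these data known, so these values describe the class and do not test its name. Macrophage markers were uneven over the Cd207- cells. Mrc1 was detected in 23 of 25 at 12 months and 14 of 23 at 6 months. Lyz2, which the rule used, was detected in all. C1qb was detected in 5 of 25 Cd207- cells at 12 months (20%, 6.83 to 40.7) and 9 of 23 at 6 months, Mertk and Lyve1 were at 0 in both classes and libraries, and Mgl2 and Cd209a, lectins of dermal type 2 conventional dendritic cells, were found in most Cd207- cells, those with C1qb included. The 2 classes are therefore called Cd207+ and Cd207- cells below. Of the markers of T cells, natural killer cells, B cells, mast cells, fibroblasts, endothelium, melanocytes and erythrocytes, 0 reached 20 UMIs over both classes in each library.

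**Figure D1:**
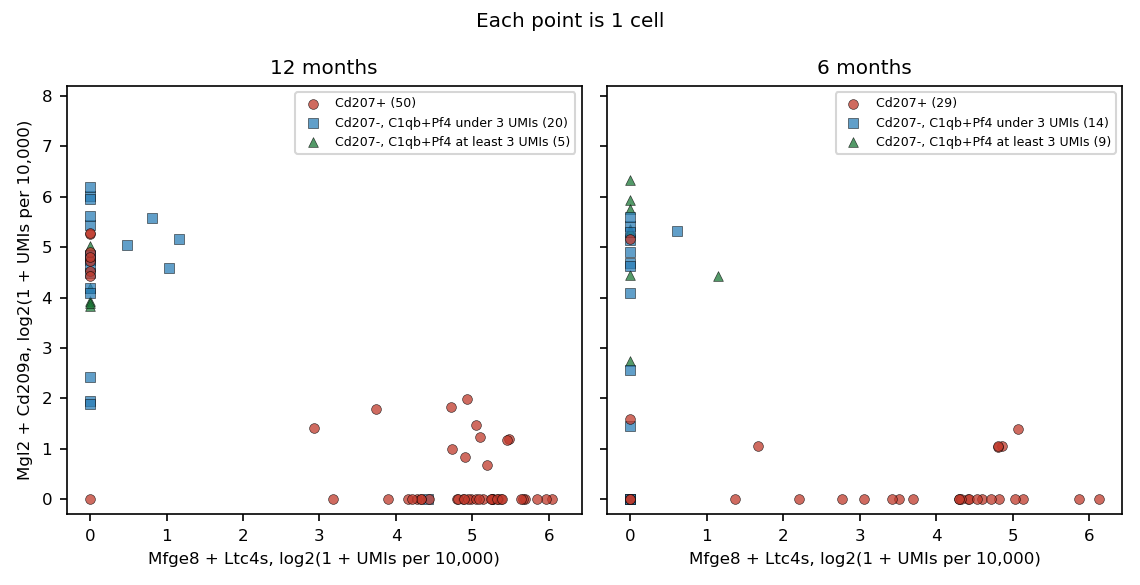
Each point is 1 cell, with Mfge8 and Ltc4s on the x axis and Mgl2 and Cd209a on the y axis, both as log2 of 1 plus UMIs scaled to 10000 per cell, and the number of cells in the legends. Most of the 50 and 29 Cd207+ cells lie along the x axis and most Cd207- cells along the y axis, and the Cd207+ cells high on the y axis hold no Mfge8 or Ltc4s.

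Levels are given as CPM, the UMIs of a gene summed over the cells of a class and scaled to 1000000 UMIs of that class. A gene was measured when it had at least 20 UMIs over both classes in each library, and it is called higher or lower when its CPM ratio was 2-fold or more the same way in both libraries. Of 2751 genes measured, 238 (8.65%) were higher in Cd207+ cells and 203 (7.38%) were lower. The median log2 ratio of all measured genes was 0.04.

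Genes tied to Langerhans cell identity separated the classes by wide margins. Mfge8, a secreted bridge between dying cells and phagocytes, had 0 to 59 UMIs per Cd207+ cell (median 15) at 12 months and 0 to 72 (median 5) at 6 months. It was detected in 41 of 50 and 23 of 29 of them, against 5 of 25 and 1 of 23 Cd207- cells. The classes overlapped at 0 and at low counts only, since no Cd207- cell of 12 months held more than 4 UMIs. As sums Mfge8 stood at 1816 CPM in Cd207+ and 29.4 in Cd207- cells at 12 months (log2 ratio 5.86, 4.96 to 7.17). At 6 months it stood at 994 and 6.62 CPM (6.65, 4.74 to 12.54). Keratinocytes had 5.06 CPM at 12 months and 109 at 6 months.

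Ltc4s, the leukotriene C4 synthase, stood at 684 CPM in Cd207+ and 22.04 in Cd207- cells at 12 months, and at 738 and 6.62 CPM at 6 months. The 6 UMIs in Cd207- cells of 12 months came from 1 cell, and T cells had none. That cell, of 4923 UMIs, also held 12 UMIs of Epcam, 4 of Mfge8 and 9 of H2-M2. Whether Cd207 was missed in it was not tested. H2-M2, a nonclassical MHC class I gene, stood at 1478 CPM in Cd207+ and 77.1 in Cd207- cells at 12 months, and at 3490 and 13.2 CPM at 6 months. Epcam, an adhesion molecule of epithelia and Langerhans cells, had 840 and 77.1 CPM in Cd207+ and Cd207- cells at 12 months, and 1170 and 13.2 CPM at 6 months. Keratinocytes also expressed it (238 and 590 CPM at 12 and 6 months). Cd24a and Cdh1, which encodes E-cadherin, were lower in level but also higher in Cd207+ cells, with log2 ratios between 2.14 and 3.27 over both genes and libraries.

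On the Cd207+ side and outside the marker list, the gene farthest apart was Tbc1d4, which encodes a regulator of vesicle traffic. It stood at 2288 CPM in Cd207+ and 18.4 in Cd207- cells at 12 months (log2 ratio 6.82, 5.73 to 8.59). At 6 months it stood at 1726 and 13.2 CPM (6.71, 5.17 to 10.08), and it was detected in 43 of 50 and 28 of 29 Cd207+ cells. No Cd207- cell held more than 1 UMI of it, T cells held 1 UMI in each library, and keratinocytes 6.26 and 14.6 CPM at 12 and 6 months. Cldn1, a tight junction claudin, had 694 and 29.4 CPM in Cd207+ and Cd207- cells at 12 months, and 951 and 26.5 CPM at 6 months. Plek2 and H2-M5 were also among the 10 genes farthest apart. Plek2 had 85 and 75 UMIs in Cd207+ cells of 12 and 6 months and none in Cd207- cells, so that it was at least 16.3-fold and 11.8-fold higher against a floor of 3 counts. Rgs1, a brake on G protein signalling, had 4261 and 301 CPM in Cd207+ and Cd207- cells at 12 months and 2105 and 46.3 CPM at 6 months, but T cells had 5367 and 6879 CPM at 12 and 6 months. Defb6 and Krt17 also ranked among these 10, and their counts came from a few cells treated further below.

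**Figure D2:**
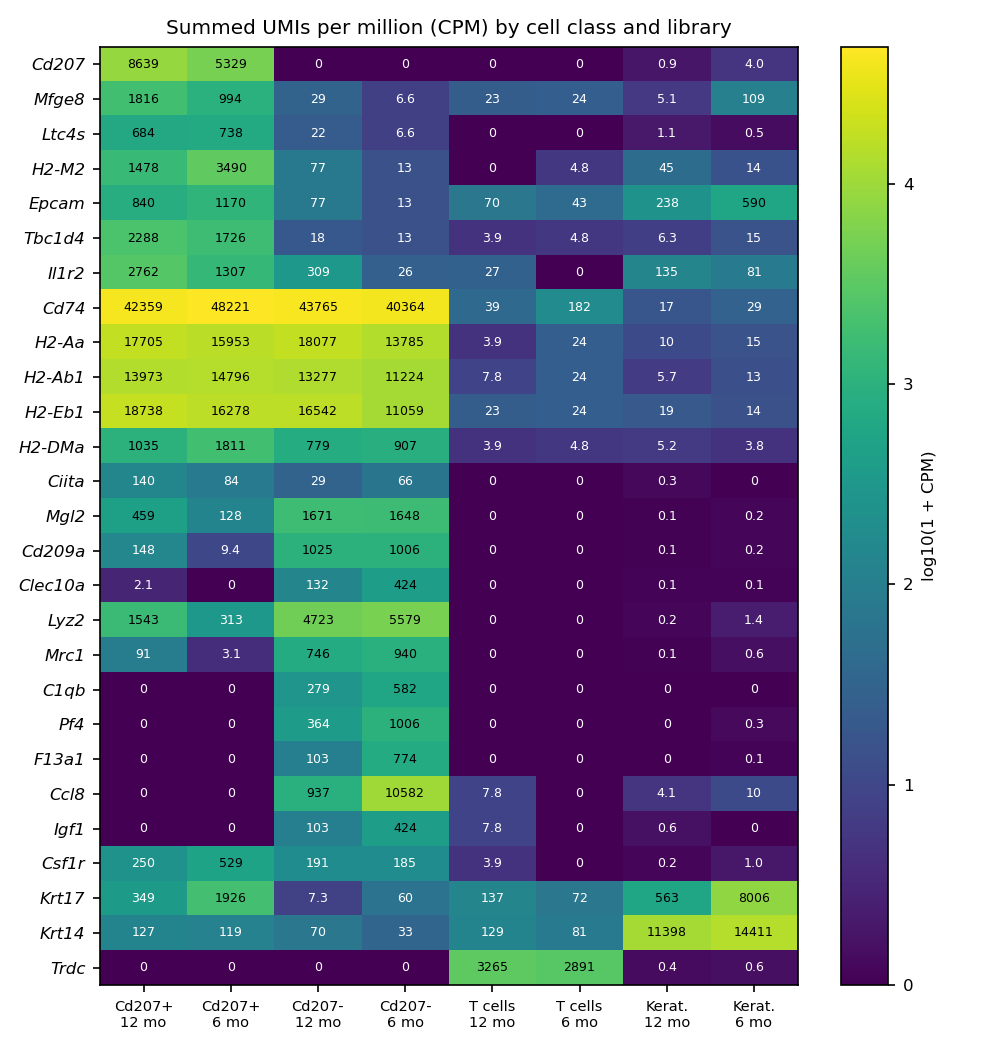
Rows are genes and columns are cell classes of each library (Cd207+, Cd207-, T cells and keratinocytes, 12 months left of 6 months). Colours give log10 of 1 plus CPM and each cell prints the CPM. The MHC class II rows are bright in both myeloid classes, Mfge8 to Il1r2 are brightest in Cd207+ cells, and C1qb to Igf1 only in the Cd207- columns.

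MHC class II genes were high and alike in both classes. Cd74, used by the rule, stood at 42359 and 43765 CPM in Cd207+ and Cd207- cells of 12 months, and at 48221 and 40364 CPM in those of 6 months. H2-Aa, the alpha chain of the I-A molecule, had 29 to 410 UMIs per Cd207+ cell (median 148.5) and 15 to 464 per Cd207- cell (median 190) at 12 months. At 6 months it had 6 to 387 (median 160) in Cd207+ and 0 to 339 (median 72) in Cd207- cells. The ranges overlapped almost in full. H2-Aa summed to 17705 and 18077 CPM in Cd207+ and Cd207- cells at 12 months and to 15953 and 13785 CPM at 6 months. The beta chains behaved alike: H2-Ab1 had 13973 and 13277 CPM at 12 months and 14796 and 11224 CPM at 6 months, in the same order of classes. H2-Eb1 had 18738 and 16542 CPM at 12 months and 16278 and 11059 CPM at 6 months. T cells had at most 23.97 CPM of these 3 genes and keratinocytes at most 18.9.

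Of 19 genes fixed for class II presentation, 14 were measured, and 0 were higher and 3 lower in Cd207+ cells (Ctsb, Ctsd and Lgmn, all lysosomal proteases). Over all measured genes 8.65% were higher and 7.38% lower. The median log2 ratio of the 14 was 0.10, beside 0.04 over all measured genes. The peptide exchange factor H2-DM is made by H2-DMa and H2-DMb1. H2-DMa had 1035 and 779 CPM in Cd207+ and Cd207- cells at 12 months, and 1811 and 907 CPM at 6 months, where the log2 ratio of 0.99 (0.73 to 1.28) lay just short of 2-fold. Ciita, the master regulator of class II transcription, was low and uneven, with 140 and 29.4 CPM in Cd207+ and Cd207- cells at 12 months and 84.4 and 66.2 CPM at 6 months.

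The promoters of the class II genes share a conserved block whose Y box is bound by the factor NF-Y. The core of that box, TGATTGG, was searched on both strands from 250 bases before to 50 bases after each start in the RefSeq table of GRCm38.p6, in which 14 of the 19 genes were found. It was present in 7 of the 8 H2- genes found and in 7.82% of all 32851 windows. H2-Ab1, Ciita and Ctsb were among the genes not found. Of the 6 other genes found, Ctsd, Ctsl, Ctss, Ifi30, Lgmn and Marchf1, 0 held the core. The stretches around it are shown for H2-Aa and H2-Eb1, the most abundant chains in that table, for H2-DMb1, and for H2-Eb2, whose transcript was almost missing from the same cells. The core is in capitals and each stretch is read along its gene.
H2-Aa (minus strand, chr17:34287847-34287913): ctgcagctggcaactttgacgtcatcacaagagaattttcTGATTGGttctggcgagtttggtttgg
H2-Eb1 (plus strand, chr17:34305766-34305832): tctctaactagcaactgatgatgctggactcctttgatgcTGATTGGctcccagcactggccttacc
H2-DMb1 (plus strand, chr17:34153088-34153154): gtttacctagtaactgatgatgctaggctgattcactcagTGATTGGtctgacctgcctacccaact
H2-Eb2 (plus strand, chr17:34325533-34325599): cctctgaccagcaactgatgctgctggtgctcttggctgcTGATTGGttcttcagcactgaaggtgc
The core begins 50, 61, 63 and 102 bases before the start in the order printed. H2-Eb2 carries it with 0 UMIs in Cd207+ and 1 in Cd207- cells at 12 months, and 5 and 0 at 6 months. H2-DMa, at 779 to 1811 CPM, has no match in its windows. A match of letters is a description and no test of binding.

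Enzymes of lipid mediator synthesis leaned towards Cd207+ cells. Of 6 measured genes of the leukotriene and prostaglandin list, 4 were higher (Alox5, Ltc4s, Ptgs1 and Hpgds) and 1 was lower (Ptgs2). Over all measured genes 8.65% were higher and 7.38% lower. Hpgds, the prostaglandin D synthase of blood-derived cells, had 864 and 62.4 CPM in Cd207+ and Cd207- cells at 12 months and 632 and 19.9 CPM at 6 months. Alox5, which makes leukotriene A4, had 114 and 11.0 CPM at 12 months and 119 and 26.5 CPM at 6 months. Ptgs2, the inducible cyclooxygenase, had 16.9 CPM in Cd207+ and 298 in Cd207- cells at 12 months. The 17 UMIs of Ptgs2 in Cd207- cells of 6 months came from 1 cell.

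Receptors that tie Langerhans cells to their niche were mixed. Il1r2, the decoy receptor for interleukin 1, had 2762 and 309 CPM in Cd207+ and Cd207- cells at 12 months (log2 ratio 3.15, 2.84 to 3.50) and 1307 and 26.5 CPM at 6 months (5.46, 4.26 to 7.51). Csf1r had 250 and 191 CPM in Cd207+ and Cd207- cells at 12 months, a log2 ratio of 0.38 whose interval (-0.10 to 0.89) held 0. That Cd207- level mixed 668 CPM in the 5 cells with at least 3 UMIs of C1qb and Pf4 together and 96.8 CPM in the other 20. At 6 months Csf1r had 529 and 185 CPM (1.49, 0.93 to 2.14). Its ligand Il34, a form made in epidermis, had 37.9 CPM in keratinocytes at 12 months and 15.5 at 6 months, and summed to 0 and 1 UMI over all myeloid cells. Fibroblasts had 12.0 and 29.6 CPM of Il34 at 12 and 6 months, above keratinocytes at 6 months. The other ligand, Csf1, stood at 209 and 174 CPM in fibroblasts of 12 and 6 months, against 8.66 and 5.70 CPM in keratinocytes. Tgfbr1, a receptor for transforming growth factor beta, was higher in Cd207+ cells on 23 and 20 UMIs at 12 and 6 months, and its interval at 6 months held 0 (1.47, -0.10 to 4.05).

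Among transcription factors, 2 of 15 measured were higher in Cd207+ cells and 1 was lower. These counts lay near the 8.65% higher and 7.38% lower of all measured genes, so they are no result about the list. Runx3, needed for Langerhans cell development, had 260 and 55.1 CPM in Cd207+ and Cd207- cells at 12 months and 410 and 39.7 CPM at 6 months, and was also present in T cells (296 and 316 CPM). Nr4a3, an immediate early nuclear receptor, was the other. Zeb2 had 93.1 and 507 CPM in Cd207+ and Cd207- cells at 12 months and 59.4 and 966 CPM at 6 months. Its 19 UMIs in Cd207+ cells of 6 months came from 1 cell, and 43 of its 44 at 12 months from 7 cells rich in Mgl2 and Cd209a, with 2.67 CPM in the other 43 Cd207+ cells. Spi1, which encodes the myeloid factor PU.1, was alike, with 237 and 250 CPM at 12 months and 338 and 232 CPM at 6 months.

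Surface molecules and secreted factors were found on both sides. The costimulatory ligand Cd86 had 707 and 301 CPM in Cd207+ and Cd207- cells at 12 months and 516 and 139 CPM at 6 months. Havcr2, the checkpoint receptor TIM-3, had 398 and 77.1 CPM at 12 months and 291 and 13.2 CPM at 6 months. Ly75, the endocytic lectin DEC-205, was seen in 19 of 50 and 17 of 29 Cd207+ cells and in no Cd207- cell, at least 5.57-fold and 4.73-fold higher against the floor of 3 counts. It was the only one of 9 measured C-type lectins that was higher in Cd207+ cells, and the other 8 were lower. Vegfa, the angiogenic factor, had 301 and 51.4 CPM in Cd207+ and Cd207- cells at 12 months, and 54 UMIs in Cd207+ against 0 in Cd207- cells at 6 months. Of 7 measured cytokines 2 were higher in Cd207+ cells (Il18 and Vegfa) and 2 were lower (Il1rn and Igf1). The shares over all measured genes were 8.65% higher and 7.38% lower.

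Several of the genes farthest to the Cd207- side are known from macrophages, and of the 10 C1qb, C1qc, Pf4 and F13a1 were on the marker list. Of 15 measured macrophage markers 0 were higher and 11 lower in Cd207+ cells, Lyz2, which the rule used, among the 11. The median log2 ratio was -2.88, beside 0.04 over all measured genes, of which 8.65% were higher and 7.38% lower. Of the 11, C1qb, Pf4 and F13a1 were at 0 in Cd207+ cells and C1qc at 0 or 1 UMI. These met the count minimum through the Cd207- cells alone, so their calls are a description only. Ccl8, a monocyte-attracting chemokine, had no UMI in any Cd207+ cell. It had 255 UMIs in 3 of 25 Cd207- cells at 12 months, 247 of them in 1 cell, and 1599 UMIs in 8 of 23 at 6 months, up to 629 per cell. It was thus at least 147-fold and 1128-fold lower in Cd207+ cells. Keratinocytes had 4.11 and 10.1 CPM of it.

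Pf4, the chemokine of platelets and resident macrophages, had 0 UMIs in Cd207+ cells, against 99 UMIs in 5 Cd207- cells at 12 months and 152 in 11 at 6 months. C1qb, a chain of complement C1q, had 0 UMIs in Cd207+ cells, against 76 and 88 in Cd207- cells of 12 and 6 months, at least 44.0-fold and 62.1-fold lower. No T cell and no keratinocyte of either library held a UMI of C1qb, and 0 of 1229 keratinocytes at 12 months allows a share of cells with a UMI, not of cells expressing the gene, of up to 0.244%. C1qa behaved otherwise, since 13 of 50 and 16 of 29 Cd207+ cells held it, at 72.0 and 200 CPM, against 511 and 1310 CPM in Cd207- cells. T cells held none of it. C1qc, F13a1, Igf1 and Retnla were also among the 10 genes farthest to the Cd207- side, with 0 or 1 UMI in Cd207+ cells. Retnla came from 1 Cd207- cell at 12 months. Gm12840 and Apod completed the 10. Gm12840 had 0 UMIs in Cd207+ cells, against 131 UMIs in Cd207- cells at 12 months, 130 of them in 1 cell, and 54 at 6 months, 53 of them in 1 cell, and T cells held it at 347 and 240 CPM. Apod, which encodes apolipoprotein D, had 0 and 1 UMI in Cd207+ cells of 12 and 6 months, against 57 UMIs in 2 Cd207- cells at 12 months and 36 in 6 at 6 months.

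In the chemokine and scavenger lists more genes were lower than higher in Cd207+ cells, beside 8.65% higher and 7.38% lower of all measured genes. Of 10 measured chemokines 1 was higher (Ccl22, on 3 Cd207+ cells in each library) and 8 were lower in Cd207+ cells. The median log2 ratio was -4.76, or -3.93 with genes at 0 held at their bound. Ccl8 and Pf4, at 0 in Cd207+ cells, met the count minimum through the Cd207- cells alone. Of 5 measured efferocytosis and scavenging genes 1 was higher (Mfge8) and 4 were lower (Gas6, Cd163, Mrc1 and Abca1). Ccl7 had 25.4 and 870 CPM in Cd207+ and Cd207- cells at 12 months and 3.13 and 576 CPM at 6 months, and 131 of its 237 UMIs at 12 months came from 1 cell. Of 7 measured complement genes 5 were lower (C1qa, C1qb, C1qc, Cfp and Itgam). C1qb and C1qc, at 0 or 1 UMI in Cd207+ cells, met the count minimum through the Cd207- cells alone as well. Of 14 measured lysosome and lipid genes 8 were lower, among them Lgals3, which encodes galectin 3, at 1647 and 4418 CPM in Cd207+ and Cd207- cells at 12 months and 794 and 1899 CPM at 6 months. Fcgr3, the activating IgG receptor, had 27.5 and 217 CPM at 12 months and 15.6 and 139 CPM at 6 months. Ccr2, which brings monocytes into tissue, had 19.1 and 165 CPM at 12 months and 6.26 and 251 CPM at 6 months.

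For the MHC class I, stress and NF-kB lists the counts lay near or below the 8.65% higher and 7.38% lower of all measured genes, so they are no result about these lists. Of 13 measured MHC class I genes 0 were higher and 1 was lower in Cd207+ cells (Tapbp), and H2-K1, a classical class I chain, had 1077 and 771 CPM in Cd207+ and Cd207- cells at 12 months and 1192 and 1171 CPM at 6 months. Of 16 immediate early and heat shock genes 0 were higher and 0 lower. Of 13 measured genes of NF-kB feedback 1 was higher (Tnfaip2) and 1 lower (Bcl3). Adhesion was mixed, since Epcam, Cdh1 and Cldn1 were higher and the integrin chains Itgam and Itgb7 lower among 13 measured. Among proteases, Mmp9, the gelatinase that Langerhans cells use to cross the basement membrane, had 222 and 18.4 CPM in Cd207+ and Cd207- cells at 12 months and 256 and 13.2 CPM at 6 months. Mmp12, the macrophage elastase, had 207.4 and 499 CPM at 12 months and 40.7 and 318 CPM at 6 months. Of its 98 UMIs in Cd207+ cells of 12 months 88 lay in the 7 cells rich in Mgl2 and Cd209a, and the other 43 cells had 26.7 CPM. Ccr7, the receptor that leads dendritic cells to lymph nodes, was found in 3 of 50 Cd207+ and 1 of 25 Cd207- cells at 12 months, and in 8 of 29 and 0 of 23 at 6 months.

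**Figure D3:**
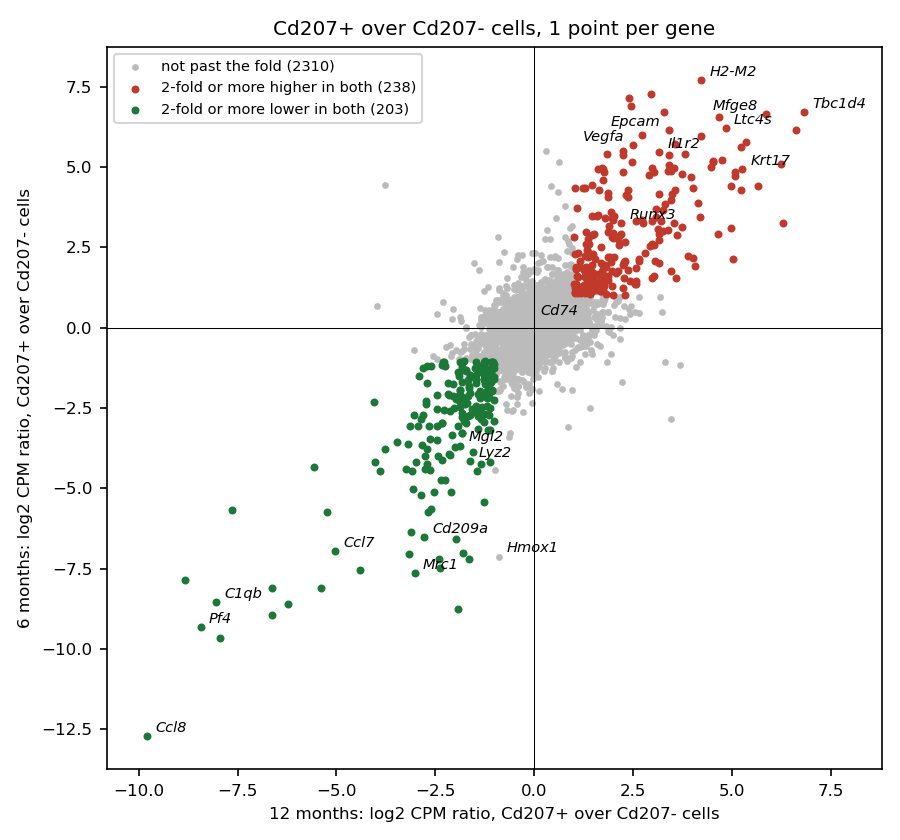
Each point is 1 of 2751 measured genes, with the log2 CPM ratio of Cd207+ over Cd207- cells at 12 months on the x axis and at 6 months on the y axis. A point with 1 class at 0 depends on the 0.5 counts added to each sum. The 238 genes at least 2-fold higher in both libraries are red and the 203 at least 2-fold lower are green. Tbc1d4, Mfge8 and H2-M2 lie at the upper right, and Ccl8, Pf4 and C1qb at the lower left.

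The Cd207- cells fell into unlike groups. A cut at 3 UMIs of C1qb and Pf4 together, chosen after the values were seen, took 5 of 25 cells at 12 months and 9 of 23 at 6 months. These cells carried all of the Ccl8 and Folr2 of the class, and Mrc1, the mannose receptor, at 1849 and 2929 CPM at 12 and 6 months. They had 20915 and 21511 CPM of Cd74, against 48276 and 46009 CPM in the other Cd207- cells. The other 20 and 14 cells had no C1qb and no Ccl8. They held Mgl2 at 1759 and 1720 CPM and Cd209a at 1143 and 645 CPM, with Lyz2 at 4644 and 5409 CPM. These lectins did not set them apart, since the C1qb and Pf4 cells held Mgl2 at 1225 and 1407 CPM (in 5 of 5 and 8 of 9 cells) and Cd209a at 423 and 2211 CPM (in 3 of 5 and 8 of 9). Clec10a, a related lectin, had 512 and 1264 CPM in the C1qb and Pf4 cells, against 57.2 and 172 CPM in the other Cd207- cells. Mgl2 was found in 24 of all 25 and 18 of all 23 Cd207- cells, 0 of 42 and 0 of 45 T cells, and at 0.06 and 0.23 CPM in keratinocytes. With the cells that held C1qb left out, 143 genes in place of 203 were lower in Cd207+ cells, 126 of them shared with the full set. Mgl2 (log2 ratio -1.94 and -3.73 at 12 and 6 months) and Cd209a (-2.94 and -5.89) remained lower.

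A few Cd207+ cells resembled these Cd207- cells. At 12 months 7 of 50 Cd207+ cells held 5 or more UMIs of Mgl2 and Cd209a together, a cut also chosen after the values were seen, and at 6 months 1 of 29 did. The 7 cells held 1 to 37 UMIs of Cd207 (median 11), against 1 to 385 (median 46) in the other 43. No UMI of Mfge8 or Ltc4s was found in any of the 8 cells. The 7 carried 692 of the 729 Lyz2 UMIs of Cd207+ cells at 12 months and all 43 UMIs of Mrc1 and all 27 of Cd163, a haemoglobin scavenger receptor. Their median depth was 14241 UMIs, against 7916 in the other 43, and the part of doublets or free RNA in them was not tested. No cell of either set held C1qb.

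High counts of keratinocyte genes lay in a few cells. The 10 keratinocyte markers summed to at least 0.5% of UMIs in 1 of 50 Cd207+ cells at 12 months (1.42%) and in 2 of 29 at 6 months (up to 3.57%), and in no Cd207- cell. In the other Cd207+ cells they made up at most 0.203% at 12 months and 0.127% at 6 months. Of 165 Krt17 UMIs at 12 months 164 came from 1 cell, and of 616 at 6 months 479 came from 1 cell, which held 32702 UMIs. Without the 3 cells, Krt17 had 2.22 and 7.35 CPM in Cd207+ and Cd207- cells at 12 months and 66.1 and 59.6 CPM at 6 months, and Defb6 had 4 and 2 UMIs in Cd207+ cells. Cldn1 kept log2 ratios of 4.53 and 5.13 without them. Whether these cells are doublets was not tested.

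The next comparison asked how Cd207+ cells of 12 months differed from those of 6 months. Of 4040 genes with at least 20 UMIs, 434 (10.7%) were 2-fold or more higher at 12 months and 524 (13%) were lower, and the median log2 ratio of all was -0.14. With that median set to 0, 530 were higher and 397 lower. Without the 3 cells rich in keratinocyte genes 451 were lower, 375 of them shared with the 524. Without the 8 cells rich in Mgl2 and Cd209a 343 were higher, 269 of them shared with the 434.

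Marker and presentation genes are given first. Cd207 itself had 8639 CPM at 12 months and 5329 at 6 months, and Mfge8 had 1816 and 994 CPM (log2 ratio 0.87, 0.68 to 1.06). Without the 8 cells Mfge8 stood at 2288 and 1027 CPM, a log2 ratio of 1.15 that passed 2-fold. Of 10 measured Langerhans cell markers 0 were higher and 3 lower at 12 months, beside 10.7% higher and 13% lower of all measured genes. H2-M2 had 0 to 63 UMIs per cell (median 12) at 12 months and 0 to 113 (median 34) at 6 months. It stood at 1478 and 3490 CPM, a log2 ratio of -1.24 (-1.38 to -1.10), which became -0.98 without the 8 cells. Cd24a and Cdh1 were the others, and Cdh1 came to -0.95 without the keratin-rich cells. Of 17 measured class II presentation genes 1 was higher (Ctsl) and 4 were lower (H2-DMb2, H2-Oa, Ctsd and Lgmn).

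Signalling genes differed in both directions. Il1b, the inflammatory cytokine, had 379 CPM at 12 months and 1392 at 6 months (log2 ratio -1.87, -2.14 to -1.62), detected in 20 of 50 and 15 of 29 cells, and 171 of the 445 UMIs at 6 months came from 1 cell. Csf1r had 250 and 529 CPM at 12 and 6 months (-1.08, -1.43 to -0.73), or -0.95 without the 8 cells. Il1r2 had 2762 and 1307 CPM (1.08, 0.92 to 1.24). Gpr183, an oxysterol receptor that guides immune cell migration, had 4 UMIs in 3 of 50 cells at 12 months and 106 in 21 of 29 at 6 months (-5.13, -7.19 to -3.89). It was low in keratinocytes (0 and 0.11 CPM) and stayed at -5.16 without the keratin-rich cells.

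Hapln3, which encodes a hyaluronan link protein, was the gene farthest to the 12-month side. It had 257 UMIs in 27 of 50 Cd207+ cells at 12 months, 0 to 37 per cell (median 1), and 0 UMIs at 6 months, at least 58.0-fold higher. No Cd207- cell and no T cell of either library held it, and keratinocytes had 0.13 and 0.11 CPM. None of its UMIs lay in the 7 cells rich in Mgl2 and Cd209a, as 257 remained without them. Hilpda, a lipid droplet protein induced by low oxygen, had 365 UMIs in 37 of 50 cells at 12 months and 18 in 9 of 29 at 6 months (log2 ratio 3.74, 3.10 to 4.55). In Cd207- cells it had 186 UMIs at 12 months and 0 at 6 months, whereas T cells had 121 and 129 CPM and keratinocytes 17.9 and 71.7 CPM.

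Several of the genes farthest to the 12-month side came from the 7 cells. Hmox1, the haem oxygenase, had 249 UMIs at 12 months and 3 at 6 months, and 241 of the 249 lay in those cells. Ear2, Lilrb4a and Ccl4 were at 0 in both libraries without the 8 cells. Of 8 measured chemokines 6 were higher at 12 months, beside 10.7% higher and 13% lower of all measured genes. Of the 6, Ccl4, Ccl5 and Ccl9 were at 0 and Ccl2 at 1 UMI without the 8 cells. Cxcl2, a neutrophil attractant, held its difference, and without the 8 cells stood at 1000.1 and 203 CPM at 12 and 6 months (log2 ratio 2.29, 1.91 to 2.71). Cxcl1 lay in 3 cells.

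Other genes moved in several cell types. Fosb, an immediate early factor, had 1825 and 300 CPM in Cd207+ cells of 12 and 6 months, 1966 and 537 CPM in T cells and 1920 and 598 CPM in keratinocytes. Mt1, a metallothionein, had 2737 and 272 CPM in Cd207+ cells and 2287 and 870 CPM in keratinocytes. In the other direction Hspa1a, an inducible heat shock chaperone, had 260 CPM at 12 months and 1920 at 6 months, with 27.3 and 638 CPM in T cells and 192 and 1179 CPM in keratinocytes. Its near-identical copy Hspa1b moved alike, and reads may be split between them. Gm10260 and AY036118, with no known role used here, were also higher at 12 months in Cd207+ cells, T cells and keratinocytes. How far tissue dissociation or the library accounts for these was not tested.

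Most of the 10 genes farthest to the 6-month side rested on the keratin-rich cells. All 138 UMIs of 2310046K23Rik at 6 months lay in 1 cell, as did all 80 of Serpinb2 and all 38 of Krt16. Without the 3 keratin-rich cells these 3 genes had no UMI at 6 months, and Krt10, the keratin of differentiating epidermis, had 9 UMIs at 12 months and 2 at 6 months in place of 10 and 254. Sprr1a and Skint3 kept 13 and 22 UMIs at 6 months. Sprr1a, Crct1, Cldn4 and Ly6g6c fell below the count minimum without the keratin-rich cells as well. Of the marker list of keratinocytes 0 of 9 measured genes were higher and 6 were lower at 12 months, with the keratin-rich cells included. Over all measured genes 10.7% were higher and 13% lower.

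**Figure D4:**
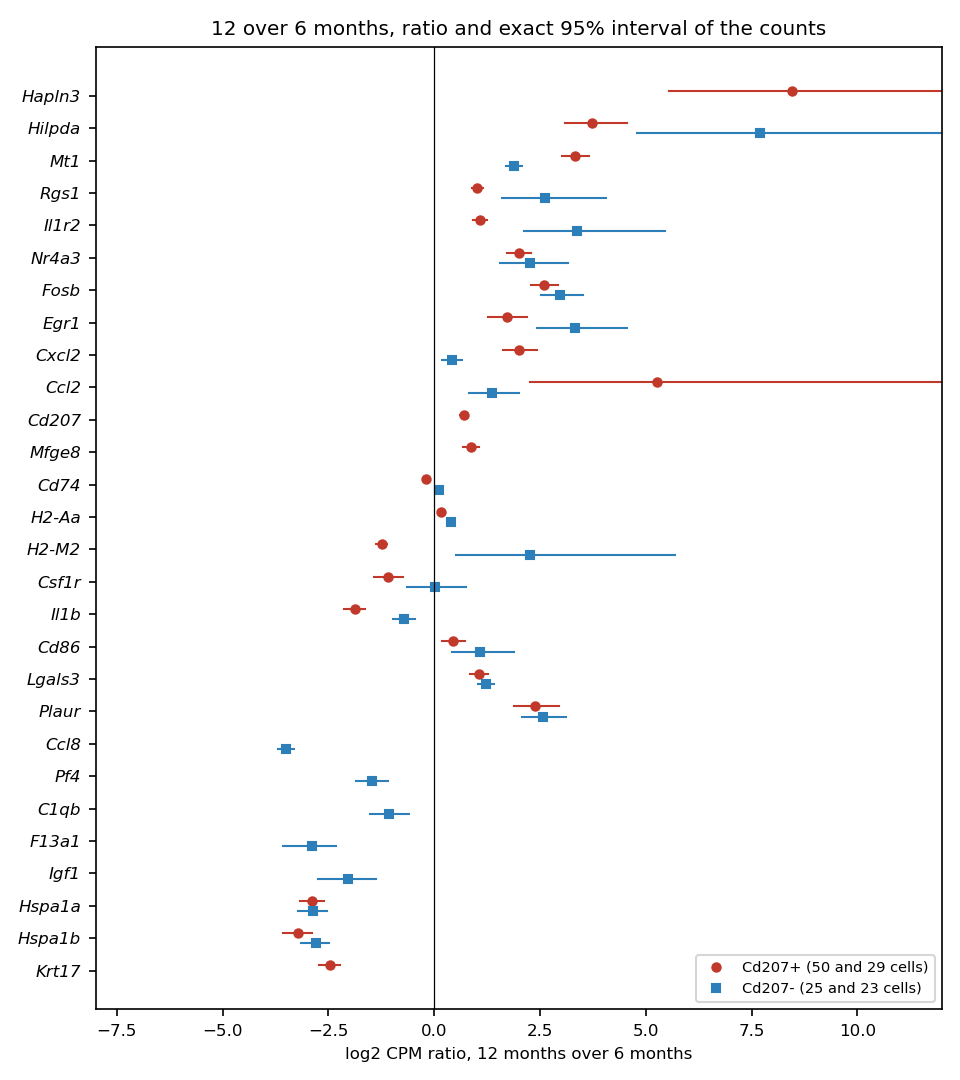
Points give the log2 CPM ratio of 12 over 6 months for named genes in Cd207+ cells (red) and Cd207- cells (blue), and lines give the exact 95% interval of the counts. A line that reaches the right edge has no upper limit because 6 months is at 0, where the point depends on the 0.5 counts added, and a class with under 20 UMIs is not drawn. Hapln3 and Hilpda lie far to the right, and Ccl8, F13a1, Hspa1a and Hspa1b to the left.

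The Cd207- cells were compared in the same way. Of 2491 measured genes 312 (12.5%) were 2-fold or more higher at 12 months and 243 (9.76%) were lower. Macrophage markers lay lower at 12 months: 0 of 19 measured were higher and 11 were lower, with a median log2 ratio of -1.12 beside -0.02 over all measured genes. Ccl8 had 937 CPM at 12 months and 10582 at 6 months (log2 ratio -3.50, -3.69 to -3.31), F13a1, the transglutaminase of resident macrophages, had 103 and 774 CPM (-2.89, -3.56 to -2.31), and Igf1, a growth factor, had 103 and 424 CPM (-2.03, -2.74 to -1.38). The share of cells with C1qb was 5 of 25 and 9 of 23, so the mixture of cells within the class moved with these values, and its part was not tested. Within the cells past the cut on C1qb and Pf4, C1qb stood at 1693 CPM in 5 cells of 12 months and 2527 in 9 cells of 6 months, and Ccl8 at 5680 and 45922 CPM. Without the cells that held C1qb, Ccl8 was at 0 in both libraries, Pf4 and C1qa had 0 UMIs at 12 months and 2 at 6 months, and Selenop, a selenium carrier, had 299 and 249 CPM. Apoe, the lipid carrier, kept its difference, with 74.8 and 679 CPM in the remaining cells of 12 and 6 months.

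Plaur and Lgals3 were higher at 12 months in the Cd207- cells outside the macrophage group too. Plaur, the urokinase receptor, had 377 UMIs in 18 of 25 cells at 12 months and 35 in 6 of 23 at 6 months (log2 ratio 2.56, 2.08 to 3.12), and 376 and 33 of them were left without the C1qb cells. By whole profile the Cd207- cells outside the macrophage-like cluster lay mostly in a cluster of 24 cells, 22 of them from 12 months and with Plaur among its leading genes, and in one of 14 cells, 10 of them from 6 months. The mixture of cells thus moved with these values too, and its part was not tested. Lgals3 had 4418 and 1899 CPM (1.22, 1.03 to 1.41), and 1.10 without the C1qb cells. Tnf had 246 and 46.3 CPM (2.32, 1.29 to 3.78), and Il10, an anti-inflammatory cytokine, had 20 UMIs in 4 cells at 12 months and 0 at 6 months, and 7 of the 20 were left without the C1qb cells. Of 7 measured cytokines 4 were higher (Il10, Tnf, Tgfb1 and Osm) and 1 was lower (Igf1). All measured genes of this comparison gave 12.5% higher and 9.76% lower. Of 9 measured costimulatory and checkpoint genes 4 were higher, among them Cd86 with 301 and 139 CPM (1.09, 0.41 to 1.88), and 2 were lower. Mucl1 came from 3 cells. On the 6-month side Cxcl3 had 94 UMIs in 3 cells and Plac8 43 in 2 cells, with none at 12 months.

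Both classes, pooled, were also set against T cells of the same libraries. Of 3823 measured genes 430 (11.2%) were 2-fold or more higher in the myeloid cells of both libraries and 435 (11.4%) were lower, and the median log2 ratio was -0.20 at 12 months and -0.07 at 6 months. H2-Aa, H2-Eb1 and H2-Ab1 were farthest on the myeloid side, followed by H2-M2, Tbc1d4, H2-DMa, Il1b, Tnfaip2, Alox5ap and Mgl2. Of these H2-M2, Tbc1d4 and Tnfaip2 came mostly from the Cd207+ cells. The rule asked for Cd74 or Lyz2 and barred Cd3g, so genes that accompany these are not independent of it. Of the rest, Alox5ap, the activating protein of 5-lipoxygenase, had 561 and 419 CPM in Cd207+ and Cd207- cells at 12 months and 700 and 569 CPM at 6 months, and none in T cells. Tnfaip2 had 2070 and 110 CPM in Cd207+ and Cd207- cells at 12 months and 1185 and 106 CPM at 6 months, against 11.7 and 0 CPM in T cells of 12 and 6 months. On the other side Trdc, the constant region of the delta T cell receptor, had 837 and 603 UMIs in T cells of 12 and 6 months and none in the myeloid cells.

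Grouping the 127 cells by their whole profile gave 6 clusters, described here with no test. A macrophage-like group held 19 cells, 6 from 12 months and 13 from 6 months, none with Cd207. In it 19 of 22 macrophage markers were at least 2-fold above the other cells and Ccl8 stood at 13520 CPM. Of the 7 markers of type 2 conventional dendritic cells 6 were also above the other cells in it. A cluster of 14 cells (4 and 10 by library, 2 with Cd207) held all 6 markers of type 1 conventional dendritic cells above the rest. No marker of Langerhans cells, macrophages or type 2 conventional dendritic cells was above the rest in it. Ccr2, Tcf4, Kit, Klrd1 and Pecam1, from other marker lists, were. Of the 6 markers only Naaa, at 1007 CPM, was among its 10 leading genes, and the cluster is left unnamed. A cluster of 24 cells, 22 from 12 months and 8 with Cd207, was led by Tnfsf14 and Plaur and held Cd209a, Mgl2 and Tnip3 above the rest. The macrophage markers Lyz2, Cd68, Cd163 and Cd14 and the monocyte marker S100a4 were above the rest in it too. The other Cd207+ cells fell into 3 clusters that followed the libraries. A cluster of 32 cells, all Cd207+ and 25 of them from 6 months, had Krt17 as its leading gene, detected in 37.5% of its cells. Most Krt17 UMIs of Cd207+ cells lay in the few keratin-rich cells described above. A cluster of 20 cells (18 from 12 months) was led by Dmwd, Rgcc and Id3, and a cluster of 18 cells, all Cd207+ and all from 12 months, by Hapln3. Cd207+ cells of 12 and 6 months thus lay mostly in different clusters, and a cluster mostly of 1 library may be that library.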

How the data were processed

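Single-cell libraries (10x 3' v3) of back skin, 1 each from P38, 6 and 12 months, were analysed. The authors deposited filtered count matrices of UMIs per gene and cell (32285 genes, mm10). The submitters' processing notes name Cell Ranger 6.1.2 and the headers of the 6-month and 12-month files 6.0.0. Cell types were not taken from an annotation. From the deposited counts, cells with 201 to 4999 genes and under 15% mitochondrial UMIs were kept. This left 2109 cells from 2397 P38 barcodes, 3502 from 4761 in the 6-month file and 3240 from 5421 in the 12-month file. No doublet caller was run, and the upper gene limit was the only guard. T cells were cells with Cd3g and with Cd3d or Cd3e under the same keratin limit. Keratinocytes had at least 1% of UMIs from Krt14 and Krt5, and fibroblasts at least 2 UMIs each of Dcn and Col1a2.

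UMIs were summed per class and library, with 0.5 counts added for ratios and an exact conditional 95% interval, checked on simulated data. A gene in 1 class at 0 was given a fold bound against a floor of 3 counts over the class. With 1 library per age no test between ages was possible. Shares at unequal depth were also computed after thinning to 1000 UMIs: Cd207 was then expected in 56.0% of the cells at 12 months and 51.0% at 6 months, beside 66.7% and 55.8% unthinned. Clusters used 1000 variable genes, 15 components, 10 neighbours and Leiden at resolution 1 (scanpy 1.11.5). Calculations ran in Python 3.11.15 with pandas 2.3.3, scipy 1.17.1 and numpy 2.4.6, and plots were drawn in matplotlib 3.10.9.

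Named genes were, per comparison, the 10 in each direction whose interval lay farthest from 0, Xist, Y-linked, mitochondrial and ribosomal protein genes aside, and the measured genes of lists fixed by role. The cells, lists and cuts were chosen with earlier results of these data known.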

Additional observations from a re-analysis of the deposited data

Results flagged for a closer look

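Cells outside the described set also held Cd207. At 12 months 3 kept cells left out by the rule had at least 10 Cd207 UMIs, and at 6 months 3 did. Of these, 2 at 12 months were left out for Cd3g, and free RNA or doublets in them were not tested. Barcodes above the upper limit on genes per cell that met the rest of the rule numbered 1 at 12 months and 5 at 6 months.

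Plet1 was the only measured gene whose 12 over 6 month ratio ran opposite ways in the classes with both intervals past 2-fold. Its log2 ratio was -4.85 (-7.38 to -3.46) in Cd207+ cells and 3.35 (1.30 to 9.26) in Cd207- cells, a difference of -8.20. Plet1 had 3 UMIs in 3 Cd207+ cells at 12 months and 68 in 3 at 6 months, against 27 UMIs in 3 Cd207- cells at 12 months and 1 in 1 at 6 months. The difference was not tested, since each age had 1 library.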

How the results depend on the processing

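No paired analysis was possible because each age had 1 library and the labels give no shared replicate numbers. For the same reason no replicate could be left out. With cells required to hold more than 500 genes, the share that met the rule was 2.41% at 12 months and 2.78% at 6 months, beside 2.31% and 1.48%. The counts of genes past 2-fold followed the minimum count and the fold, by construction. With at least 5 UMIs they were 539 higher and 517 lower for Cd207+ over Cd207- cells, 1124 and 1583 for 12 over 6 months in Cd207+ cells, 849 and 1230 in Cd207- cells, and 771 and 1065 for myeloid over T cells. With at least 50 UMIs they were 112 and 87, 204 and 186, 148 and 64, and 211 and 177 in the same order. At 3-fold they were 136 and 105, 193 and 165, 129 and 81, and, for myeloid over T cells, 248 lower. The other 120 values of the main results kept within 1.5 times or 1 interval. Of the ratios of named genes that still met the count minimum under a setting, 1004 kept within their interval, 9 moved and 0 changed sign. Another 47 fell below the minimum and were not scored, and 12 of them had the opposite sign on these few counts, for Krt17, Defb6, Krt10, Serpinb2, 2310046K23Rik, Ear2, Lilrb4a, Ccl4 and Rnase4. Without the keratin-rich cells the log2 ratio of Krt17 became -0.67 in place of 5.10, as the mean of both libraries, and that of Krt10 for 12 over 6 months 1.20 in place of -5.16. Settings that left out the keratin-rich, Mgl2-rich or C1qb cells were added after the data were seen. Genes under 20 UMIs were beyond the depth of these cells.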
